A study of Mus musculus with 50 samples.

Results

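Sox7, Sox17 and Sox18 are the 3 members of the SoxF subfamily. They were taken as the rows of those names in a table of TPM (a transcript level scaled by length and to a common total), and all 3 had a row, so they made up 3 of 11879 gene rows. The table holds 50 single cells of 1 group, induced hemogenic endothelial progenitors (iHECs) of mouse strain C57BL/6. They were grown from embryonic stem cells in which a Runx1 cassette at Rosa26 is switched on by doxycycline (iRunx1), given from day 6 to day 11, and all 50 cells carried the cassette. At day 11 the cells were sorted as CD31+CD41lowCD45-c-kit+CD201high, the surface phenotype of embryonic pre-HSCs, and the cDNA of each cell was amplified. The labels name no culture, clone or batch, so the cells were treated as 1 sample without a replicate, and every value below describes these cells with no test.

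SoxF factors are DNA-binding proteins of the high-mobility-group box class and are made chiefly in endothelium. They act partly in place of one another in building vessels. Sox17 is known for arterial endothelium and for endoderm, Sox18 for the early lymphatic and blood vessel wall, and Sox7 for hemogenic endothelium, where its level falls as blood cells emerge. In hemogenic endothelium SoxF factors keep the vascular program on, and Runx1 drives the blood program.

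In GENCODE M21 (GRCm38, the assembly of mm10), Sox7 lies on the plus strand at chr14:63943673-63950732, with 1 annotated transcript of 3299 bases in 2 exons. Sox17 lies on the minus strand at chr1:4490931-4497354, with 8 transcripts, the longest 3242 bases in 4 exons. Its span shares 804 bases with Gm37587, a non-coding transcript on the opposite strand, and since the strand setting of the libraries was not given, reads from that stretch cannot be told apart. Sox18 lies on the minus strand at chr2:181669836-181671640, with 1 transcript of 1620 bases in 2 exons. The longest run of identical bases that transcripts of any pair share was 29 (Sox17 and Sox18), 22 (Sox7 and Sox17) or 20 (Sox7 and Sox18).

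SoxF proteins bind short sites such as AACAAT and AACAAAG, so the sequences just before the start of 3 genes are shown here, and refer to the values given further on. Hlx had the highest rank correlation with Sox17, Robo4 is the gene of the endothelial list with a rank correlation of 0.3 or more with both Sox7 and Sox17, and Tek, the angiopoietin receptor, is named in the literature as a target and had correlations near 0 with all 3. Each is the 250 bases before the start in RefSeq on GRCm38.p6, read 5′ to 3′ along the gene, with matches to either site in capitals. They lie at chr1:184732494-184732743 on the minus strand (Hlx), chr9:37401722-37401971 on the plus strand (Robo4) and chr4:94739039-94739288 on the plus strand (Tek).
Hlx: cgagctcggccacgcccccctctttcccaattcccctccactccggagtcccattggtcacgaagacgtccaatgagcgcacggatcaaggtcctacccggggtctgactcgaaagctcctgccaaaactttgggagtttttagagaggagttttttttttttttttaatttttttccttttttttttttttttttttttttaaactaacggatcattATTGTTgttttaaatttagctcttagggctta
Robo4: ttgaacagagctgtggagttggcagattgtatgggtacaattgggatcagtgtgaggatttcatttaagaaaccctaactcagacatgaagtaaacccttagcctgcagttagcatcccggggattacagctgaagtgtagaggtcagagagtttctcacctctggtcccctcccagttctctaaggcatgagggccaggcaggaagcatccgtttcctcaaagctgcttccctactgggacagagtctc
Tek: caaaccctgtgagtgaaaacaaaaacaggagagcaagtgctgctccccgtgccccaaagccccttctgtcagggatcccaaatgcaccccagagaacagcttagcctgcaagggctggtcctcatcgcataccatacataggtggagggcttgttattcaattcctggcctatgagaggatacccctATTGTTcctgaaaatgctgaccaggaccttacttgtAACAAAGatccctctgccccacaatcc
The match in Hlx is to AACAAT on the opposite strand (ATTGTT), beginning 32 bases before the start. Tek holds the same match 63 bases before its start and AACAAAG 27 bases before it, while Robo4 holds neither in this window. Searched on both strands, AACAAT occurred in 10.9% of the 27025 promoters of this length and AACAAAG in 5.77% and no match to one lies within a match to the other. Of the 10 genes that followed each member most closely, AACAAT was found in 1 of 7 with a listed promoter for Sox7, 1 of 8 for Sox17 and 0 of 8 for Sox18. AACAAAG was found in 0 of 7, 1 of 8 (Gabarapl1) and 0 of 8. Of the 8 literature targets with a listed promoter, 2 held AACAAT (Mmp7 and Tek) and 1 held AACAAAG (Tek). The matches are descriptions of letters and show no binding.

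The 50 columns summed to between 942975 and 970894 TPM. These values carry no information on how deeply a cell was sequenced, and a value of 0 is given only as listed at 0. Cells had between 2400 and 8615 genes above TPM 1, the level that counts a gene as present here, with a median of 6223.5. Cell 4-6 was the lowest, and the next had 4326. Cells are named by the 2 numbers of their titles, whose meaning the labels do not give, and the first number splits the cells into sets of 11, 14, 13 and 12. All 18 genes of the endothelial list were above TPM 1 in at least 39 cells, with a summed level of 1055 to 17277 TPM per cell. The blood marker Ptprc (CD45), against which the cells were sorted, was listed at 0 in all 50 cells, as were Spn, Myb and Gata1. These were the only 4 of the 20 genes of the blood list that were never above TPM 1. In contrast, 10 of the 20 were above it in at least 50% of the cells, among them Laptm5 (48 cells), Lyl1 (43) and Itga2b (40). Sfpi1 was above it in 24 cells.

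Sox18 was the most abundant SoxF gene by median TPM and, with Sox7, the most widely present: above 5 TPM the share of cells was 92% for Sox18 and 94% for Sox7. Sox18 was above TPM 1 in 48 of 50 cells (96.0%, exact 95% interval 86.3% to 99.5%, and all such intervals cover counting error over cells only). Its lowest value was 0.505 TPM, its median 377 and its highest 1891, with quartiles of 201 and 620. It exceeded 100 TPM in 41 cells and 500 TPM in 20. Values of 1 or less were found in cells 1-7 (0.80 TPM) and 4-7 (0.51 TPM), and cell 2-3 was just above that level at 1.84 TPM. Sox18 thus formed a high main body of cells with a few cells far below it.

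Sox7 was about as widely present at a lower level. It was above TPM 1 in 47 cells (94.0%, 83.5% to 98.7%), from 0.224 to 837 TPM with a median of 96.3 and quartiles of 36.2 and 190. It exceeded 100 TPM in 25 cells and 500 TPM in 1, cell 3-1. The 3 cells at or below TPM 1 were 1-3 (0.22), 3-14 (0.37) and 4-6 (0.85), the last being the cell with the fewest genes.

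Sox17 was the lowest and the least evenly spread. It was above TPM 1 in 36 cells (72.0%, 57.5% to 83.8%), listed at 0 in 8 and between 0 and 1 in the other 6. The median over all cells was 16.8 TPM, with quartiles of 0.487 and 67.4 and a maximum of 299 in cell 2-12, and over the 36 cells above TPM 1 it was 40.3. The coefficient of variation over cells was 145% for Sox17, 109% for Sox7 and 81.0% for Sox18. On the log2(TPM + 1) scale the means were 3.72 ± 2.74 for Sox17, 6.19 ± 2.02 for Sox7 and 7.93 ± 2.34 for Sox18 (SD over 50 cells, not over replicates).

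**Figure D1:**
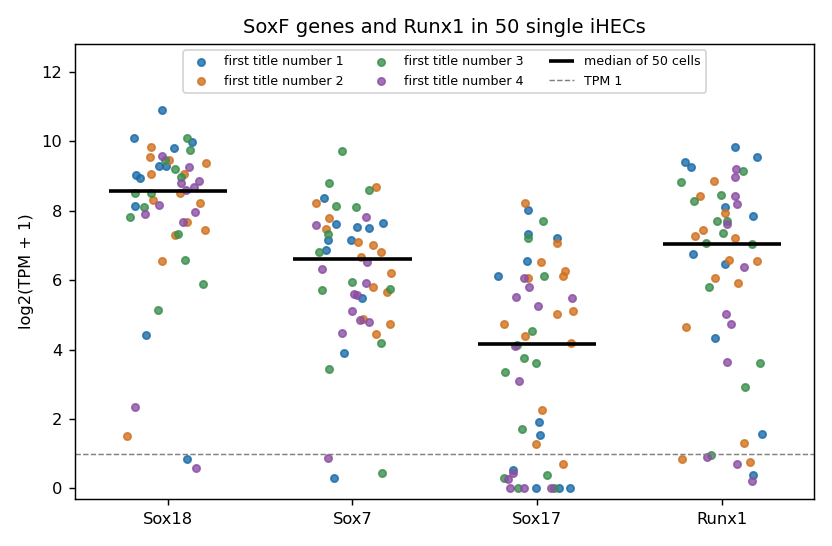
Level of Sox18, Sox7, Sox17 and the induced factor Runx1 in each of 50 iHECs, as log2(TPM + 1); each point is 1 cell, coloured by the first number of its title, the bar is the median and the dashed line TPM 1. Medians fall from 377 TPM (Sox18) to 96.3 (Sox7) and 16.8 (Sox17), with 14 cells at or below TPM 1 for Sox17.

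The presence of Sox17 also varied most among the sets of cells that share a first title number. It was above TPM 1 in 7 of 11, 13 of 14, 9 of 13 and 7 of 12 cells for numbers 1 to 4. Its medians there were 2.77, 32.4, 11.1 and 11.9 TPM. The exact 95% intervals of these shares overlapped, the widest apart being 66.1% to 99.8% for number 2 and 27.7% to 84.8% for number 4. Sox7 was present in 90.9% to 100% of the cells of each number, with medians from 47.01 to 141 TPM, and Sox18 in 90.9% to 100%, with medians from 337 to 620 TPM.

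Levels were placed in the order of the 38 transcription factors of the gene lists, the 3 members included, by median TPM. Sox18 was second, below the Wnt effector Ctnnb1 (592) and above the Notch target Hes1 (192), the ETS factors Elk3 (183) and Ets2 (157) and then Runx1 (132). Sox7 was eighth, between the ETS factors Fli1 (101) and Ets1 (89.2), followed by Sox4 (60.4). Sox17 was 16th, after Erg (23.9) and Gata2 (20.7) and before the Wnt factors Lef1 (10.7) and Tcf7l1 (8.22). The quartile ranges of each member overlapped those of its neighbours, so these places are not separated beyond the spread over cells. Among all rows of the table, 96.6% had a lower median than Sox18, 86.3% than Sox7 and 63.3% than Sox17.

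Of the 16 other Sox genes looked for, 5 had a row and 11 were not analysed here. Sox4, a SoxC factor, was present in 44 cells at a median of 60.4 TPM, and Sox13, a SoxD factor, in 28 cells at 7.13 TPM. Sox12 was present in 14 cells, Sox11 in 12 and Sox6 in 2. By median TPM the order of Sox genes was therefore Sox18, Sox7, Sox4, Sox17 and Sox13.

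Every cell held at least 2 SoxF genes above TPM 1 (50 of 50, exact 95% interval 92.9% to 100%). All 3 were present in 31 cells (62.0%, 47.2% to 75.3%), Sox7 with Sox18 in 14 (28%, 16.2% to 42.5%), Sox17 with Sox18 in 3 and Sox7 with Sox17 in 2. No cell held 1 member alone or none, which with 3 counts of 50 allows a share of up to 6% for each such pattern (the bound of the exact two-sided interval is 7.11%). In other words, the 14 cells without Sox17, the 3 without Sox7 and the 2 without Sox18 were 19 separate cells. With so few cells lacking Sox7 or Sox18, the presence of one member could not be related to that of another: Sox17 was above TPM 1 in 33 of 47 cells with Sox7 (70.2%, 55.1% to 82.7%) and in 3 of 3 without it (29.2% to 100%).

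The pattern depended on the level that counts as present. Above 0, all 3 genes were found in 84.0% of cells, because Sox7 and Sox18 were above 0 in all 50. Above 10 TPM, 25 cells held all 3 members, 22 held 2, 2 held 1 and cell 4-6 held none. Above 100 TPM, 4 cells held all 3, 19 held 2, 23 held 1 and 4 held none. The share of cells with all 3 above TPM 1 ran from 41.7% to 92.9% over the first title numbers.

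**Figure D2:**
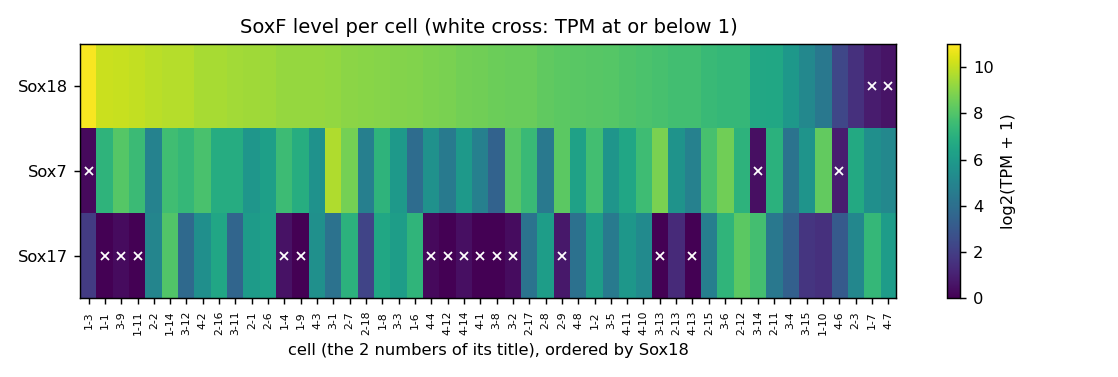
Heat map of log2(TPM + 1) for Sox18, Sox7 and Sox17 (rows) in each of the 50 cells (columns, ordered by Sox18), with a white cross where TPM was 1 or less. The crosses fall in 19 columns, 14 of them for Sox17, and no column holds 2 crosses.

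Sox18 had the highest TPM of the 3 in 36 cells (72.0%, 57.5% to 83.8%), Sox7 in 9 (18.0%, 8.58% to 31.4%) and Sox17 in 5 (10.0%, 3.33% to 21.8%). Within a cell Sox18 exceeded Sox7 in 39 of 50 cells, with a median difference of 1.99 on the log2(TPM + 1) scale, and exceeded Sox17 in 44 of 50, with a median difference of 3.66. Sox7 exceeded Sox17 in 37 of 50, with a median difference of 2.34. Of the summed SoxF TPM in a cell, Sox18 made up a median of 75.1%, Sox7 17.2% and Sox17 4.25%. The sum itself ran from 12.5 TPM in cell 4-6 to 1894 TPM in cell 1-3, with a median of 576.

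Most of the endothelial list was present in the cells that departed from this order. Cell 1-3 had the highest Sox18 of all (1891 TPM), almost no Sox7 (0.22) and little Sox17 (2.77). There 17 of the 18 endothelial genes were present, with Esam, a junction protein, at 309 TPM, below its lower quartile of 391. Cell 3-14 had Sox17 at 206 TPM against 0.37 for Sox7 and 94.96 for Sox18, again with 17 endothelial genes present and Runx1 at 6.64 TPM. Its level of the cadherin gene Cdh5 (19.8 TPM) was the lowest of all cells. In cell 1-7 Sox17 stood at 160 TPM, Sox7 at 43.8 and Sox18 at 0.80, and all 18 endothelial genes were present, with Cdh5 at 252 TPM. Cell 4-7, with Sox17 at 65.8 TPM and Sox18 at 0.51, held 15 endothelial genes, the fewest of any cell, and Runx1 at 584 TPM. Cell 4-6 was low in all 3 (0.85, 7.60 and 4.07 TPM for Sox7, Sox17 and Sox18), held 16 endothelial genes and had Esam at 3.304 TPM. That cell had 2400 genes above TPM 1, and the part of this in its SoxF values was not tested.

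Sox17 exceeded 100 TPM in 7 cells, and its companions differed widely among them. Sox18 was at 886 TPM in cell 1-14, 488 in 1-6, 536 in 2-7, 160 in 3-6, 158 in 2-12, 94.96 in 3-14 and 0.80 in 1-7. Sox7 in the same cells was at 195, 14.0, 410, 388, 136, 0.37 and 43.8 TPM. Cells rich in Sox17 therefore included cells both high and low in the other members.

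Over the 50 cells the members did not rise and fall together beyond a weak relation. Spearman's rho, a rank correlation, was 0.02 for Sox7 and Sox17, 0.14 for Sox7 and Sox18 and −0.13 for Sox17 and Sox18. Within the 4 first title numbers these ran from −0.11 to 0.56, from −0.27 to 0.38 and from −0.43 to 0.24, so each changed sign. The cells were treated as 1 sample and differ in how many genes were found. The rank correlation with the number of genes per cell was −0.03 for Sox7, 0.16 for Sox17 and −0.07 for Sox18, and partial rho given that number left the 3 pairs at 0.03, 0.14 and −0.12. For scale, 75.7% of the rows compared had a lower rho with Sox7 than Sox18 did.

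**Figure D3:**
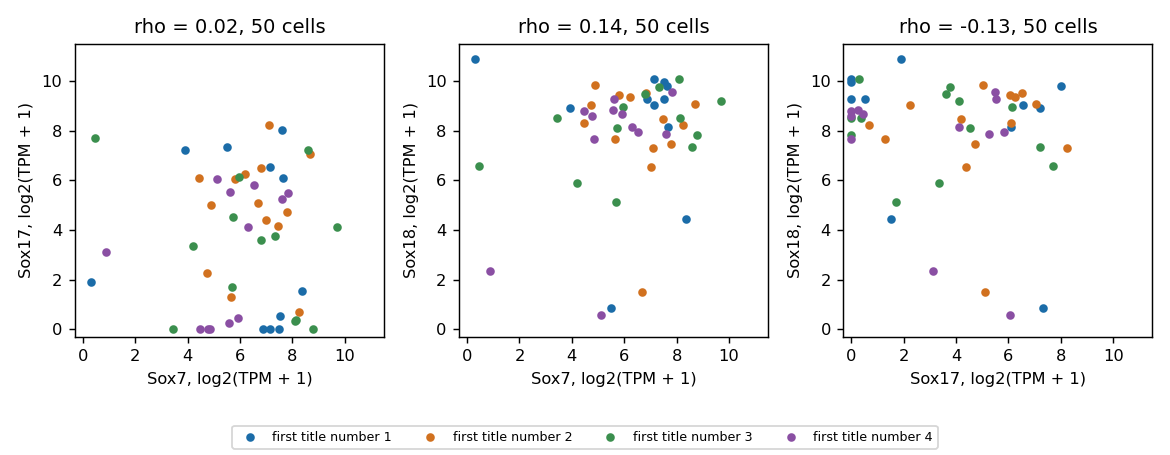
Each SoxF gene against each other one in 50 cells, both axes as log2(TPM + 1), with 1 point per cell coloured by the first number of its title. The clouds show no common slope (rho of 0.02, 0.14 and −0.13), and cells low in one member lie within the range of the others.

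Runx1, the induced factor, was above TPM 1 in 43 cells at a median of 132 TPM, without distinction between the cassette and the gene's own transcripts. The rank correlation with Runx1 was 0.16 for Sox7, above 0 within all 4 first title numbers (0.05 to 0.31). It was −0.25 for Sox17 (−0.47 to 0.24 within the numbers, −0.31 as partial rho) and −0.08 for Sox18. All 3 are weak relations, and Sox17 was listed at 0 in 8 cells.

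Genes that followed each member were sought among the 9104 rows above TPM 1 in at least 10 cells. Of the 9103 rows other than the member itself, 399 had a rho of 0.3 or more with Sox7 (4.38%) and 162 had −0.3 or less (1.78%). For Sox17 these were 216 (2.37%) and 93 (1.02%), and for Sox18 352 (3.87%) and 155 (1.7%). The middle 90% of all rows lay between −0.23 and 0.29 with Sox7, −0.20 and 0.26 with Sox17 and −0.23 and 0.28 with Sox18, which is the spread against which single genes are to be read. As partial rho given the genes found per cell, the higher count for Sox17 fell to 141 and the lower one rose to 187. Leaving out 1 first title number raised the higher counts, except for Sox7 without number 4, where the count fell to 364. Without numbers 1, 2 and 3 the counts for Sox7 were 683, 831 and 477. For Sox17 they were 350, 483, 554 and 239 without numbers 1 to 4, and for Sox18 812, 401, 394 and 438. Each of these settings held fewer cells at the same rho level, and the part of this in the rise was not tested.

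The genes named next for each member were picked as the extremes of 9103 rows over these same cells, so the size of their rho, its sign within the first title numbers and the levels split by them are largely set by the choice and support nothing further. The gene closest to Sox7 was Tgm2, a transglutaminase, with a rho of 0.61, and from 0.42 to 0.85 within the first title numbers. It was present in all 50 cells at a median of 315 TPM. Next came the transcription factor Arid3a (0.56), the adaptor subunit Ap3d1 (0.55), Sipa1, which acts on the Rap1 GTPase (0.53), Rilpl1 (0.53), 1700094D03Rik (0.51), the actin-binding Dbn1 (0.51), the insulin-like growth factor binding protein Igfbp4 (0.50), Gltscr2 (0.49) and Marcksl1 (0.49). At the other end stood Wdr76 (−0.60), Romo1 (−0.54), Rbx1, a RING subunit of ubiquitin ligases (−0.50), Otud6b (−0.47) and the mitochondrial ribosomal gene Mrpl51 (−0.47). Sox7 had a median of 43.8 TPM (quartiles 17.4 and 102) in the 21 cells with Wdr76 above TPM 1 and 136 TPM (59.6 and 220) in the 29 others, so the 2 sets overlapped.

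Sox17 was followed most closely by Hlx, a homeobox factor, with a rho of 0.60 (0.27 to 0.83 within the numbers). Hlx was above TPM 1 in only 21 cells, and in those Sox17 had a median of 67.9 TPM (quartiles 19.98 and 147) and was present in 19. In the 29 other cells Sox17 had a median of 2.28 TPM (0.202 and 25.8) and was present in 17. The next genes were the small GTPase Arf6 (0.58), the V-ATPase subunit Atp6v0d1 (0.53), the kinase gene Mapk8, also called JNK1 (0.51), the zinc finger factor Klf6 (0.49), Tmem181c-ps (0.49), the autophagy gene Gabarapl1 (0.48), the cyclin Ccng2 (0.47), the translation factor Eif1 (0.47) and Nat9 (0.46). The lowest were Gmps, an enzyme of guanine nucleotide synthesis (−0.56), the ubiquitin ligase Rnf4 (−0.48), Dalrd3 (−0.47), Nme4 (−0.45) and Naa16 (−0.44).

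Tmem204 had the highest rho with Sox18, 0.55 (0.24 to 0.80 within the numbers), and encodes a membrane protein known from endothelium. It was present in 46 cells at a median of 130 TPM, and of the 4 cells without it Sox18 was also at or below TPM 1 in 1. Zfp467 (0.54), Fbxo28 (0.53), Ier5l (0.52), the kinase Plk3 (0.51), the factor Creb3 (0.51), the lipid phosphatase gene Ppap2a (0.50), AU022252 (0.50), the matrix protein Sparc (0.49) and the Myc partner Max (0.48) followed. Plk3 was above TPM 1 in only 10 cells. Hmgb3, a high-mobility-group protein tied to progenitor growth, was lowest (−0.52), then the exon junction gene Magohb (−0.50), 2010204K13Rik (−0.47), the kinetochore gene Zwilch (−0.47) and Foxj3 (−0.45). Sox18 had a median of 276 TPM (126 and 413) in the 27 cells with Magohb and 614 TPM (398 and 751) in the 23 without.

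**Figure D4:**
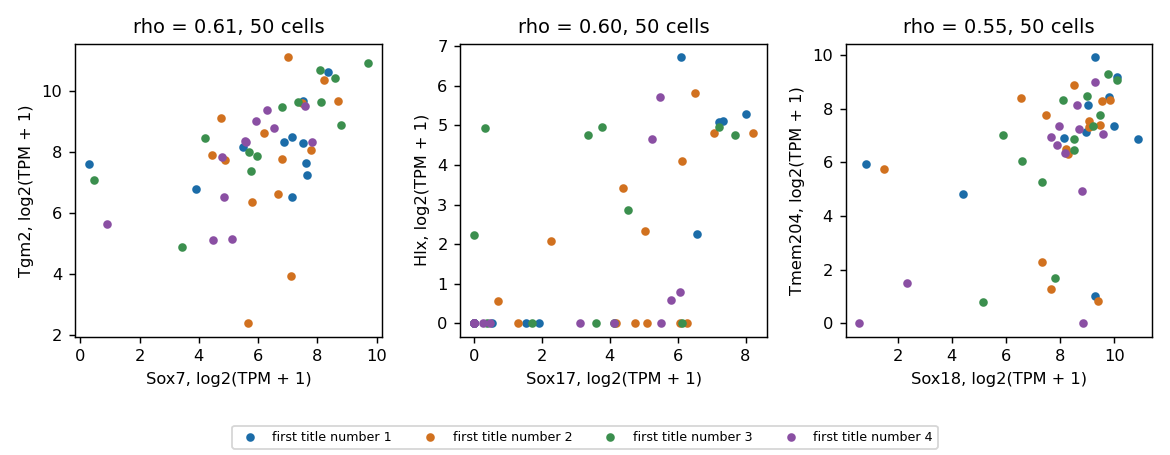
The gene of highest rho with each SoxF gene (Tgm2 with Sox7, Hlx with Sox17, Tmem204 with Sox18) in 50 cells, both axes as log2(TPM + 1), with 1 point per cell coloured by the first number of its title. Tgm2 rises over the range of Sox7 in a wide band, while 29 cells have Hlx at or below TPM 1 and in these Sox17 reaches 75.8 TPM.

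Some genes followed more than 1 member. With a rho of 0.3 or more, Sox7 and Sox18 shared 47 genes, which were 11.8% of those of Sox7, beside 3.87% of all rows for Sox18, and 13.4% of those of Sox18, beside 4.38% of all rows for Sox7. Without cell 4-6, which was low in both, the genes of Sox7 numbered 296 and those of Sox18 241, and the overlap for that setting is not given here. Sox7 and Sox17 shared 9, which were 2.26% of those of Sox7, beside 2.37% of all rows for Sox17, and 4.17% of those of Sox17, beside 4.38%, so this share lay near the background. They were Bcar1, Irf2bp1, Mall, Mrpl24, Pdgfb, Ptprm, Robo4, Stx4a and Vps72. Sox17 and Sox18 shared 8, which were 3.70% of those of Sox17 and 2.27% of those of Sox18, beside 3.87% and 2.37% of all rows and so also near the background. They were AU022252, Abcg1, Bicd2, Cdk19, Ifngr2, Ranbp10, Tada3 and Traf3, and no gene was shared by all 3. The names of these shared genes were taken after their values were seen. Robo4, Pdgfb and Ptprm are known from endothelium, as a guidance receptor, a growth factor and a receptor phosphatase.

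Endothelial identity genes were more often above the rho level with Sox7 and Sox18 than rows at large. With Sox7, 7 of 18 had a rho of 0.3 or more (background 4.38%), namely Robo4 (0.47), Esam (0.45), the receptor Tie1 (0.40), Mmrn2 (0.38), the VEGF receptor Flt1 (0.36), Egfl7 (0.35) and the claudin Cldn5 (0.32), and the median of the list was 0.19 against 0.03 over all rows. With Sox18, 6 of 18 did (background 3.87%), namely Mmrn2 (0.46), Ecscr (0.41), the TGF-beta co-receptor Eng (0.41), Flt1 (0.39), Plvap (0.38) and Icam2 (0.34), with a median of 0.20 against 0.02, and all 18 were positive. With Sox17 only Robo4 did (0.36, background 2.37%), and the median was 0.08 against 0.03. None of the 18 had −0.3 or less with any member (backgrounds 1.78%, 1.02% and 1.7%), but 2 did with Sox17 without first title number 4 and 1 without cells of fewer than 5000 genes. Endothelial genes are present in more cells than most rows, and among rows above TPM 1 in at least 39 cells the share of rho at 0.3 or more was 6.36% for Sox7, 2.31% for Sox17 and 5.78% for Sox18. Leaving out 1 first title number at a time gave 4 (without number 3) to 8 genes for Sox7, 0 (without number 2) to 2 (without number 3) for Sox17 and 6 to 11 (without number 1) for Sox18. Over all rows the shares in those settings ran from 4.15% to 9.41% for Sox7, 2.76% to 6.33% for Sox17 and 4.50% to 9.29% for Sox18, with 5.70% for Sox7 without number 3 and 9.29% for Sox18 without number 1. Whether Sox17 differed from the other members in this was not tested.

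Robo4 in the cells themselves shows the width of these relations. It was picked for its rho with Sox7 and Sox17 over these same cells, so the levels split by it are largely set by the choice and support nothing further. Robo4 was above TPM 1 in 39 cells, and in those Sox7 had a median of 127 TPM (quartiles 57.0 and 210, lowest 14.0). In the 11 other cells Sox7 had a median of 21.2 TPM (5.37 and 48.1) but reached 184. Sox17 had medians of 25.8 and 2.28 TPM in the same sets, and the 2 ranges overlapped. Both sets of cells thus held cells of high Sox7. The 3 cells without Sox7 were all among the 11 without Robo4, and 1 of them was cell 4-6, which had the fewest genes.

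**Figure D5:**
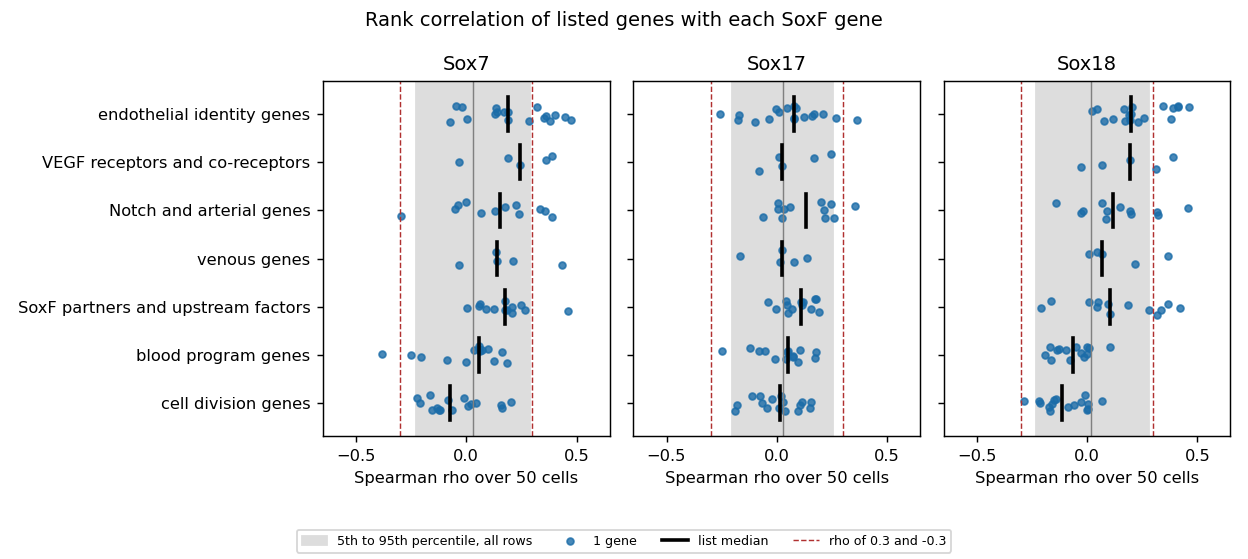
Spearman's rho over 50 cells (horizontal axis) of each listed gene with Sox7, Sox17 and Sox18, for 7 gene lists (vertical axis); points are genes, bars list medians, the grey band the 5th to 95th percentile of all 9103 rows and the red dashed lines rho of 0.3 and −0.3. The endothelial list is shifted to the right for Sox7 and Sox18 (medians 0.19 and 0.20), while the medians of blood and cell division genes lie between −0.11 and 0.06. With Sox18, 3 of 14 blood genes and 3 of 16 cell division genes were positive.

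The VEGF receptor list holds 5 genes, of which 2 reached 0.3 with Sox7, 0 with Sox17 and 2 with Sox18 (4.38%, 2.37% and 3.87% of all rows). Flt1 (0.36) and the co-receptor Nrp1 (0.39) reached 0.3 with Sox7, Flt1 (0.39) and the lymphatic receptor Flt4 (0.31) with Sox18, and none with Sox17. Kdr, the main VEGF receptor, had 0.19, 0.17 and 0.20 with Sox7, Sox17 and Sox18. List medians were 0.24, 0.02 and 0.20. Only 1 gene reached 0.3 with Sox7 without first title number 2, 3 or 4 (4.15% to 9.41% of all rows in these settings). With Sox18 only 1 did without number 3 or 4, without cells of fewer than 5000 genes or without the cell with the fewest genes (2.65% to 4.99%).

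Of the 18 Notch and arterial genes, 12 were in enough cells to compare. With Sox7, 3 reached 0.3 (4.38% of all rows), namely Nrp1 (0.39), the Notch target Hey1 (0.36) and the ligand Jag2 (0.34), while the ligand Jag1 had −0.30 and did not reach −0.3 before rounding. With Sox17 1 did (2.37% of all rows), the endothelial receptor Notch4 (0.36, positive within all 4 numbers), and Efnb2, the arterial ephrin, had 0.26. With 1 first title number left out, Notch4 fell to 0.28 at its lowest, below the 0.3 level. With Sox18 3 did (3.87% of all rows), the receptor Acvrl1 (0.46), the connexin Gja4 (0.32) and Hey1 (0.32). Dll4, the arterial Notch ligand and a known SoxF target, was present in 22 cells and had 0.00, 0.00 and 0.08. The medians were 0.15, 0.13 and 0.12 with Sox7, Sox17 and Sox18. Leaving out 1 first title number gave 1 (without number 3) to 4 genes for Sox7, 1 to 3 (without number 4) for Sox17 and 1 (without number 4) to 5 (without number 1) for Sox18, and 2 for Sox7 without number 4, 2 for Sox17 without number 3 and 2 for Sox18 without number 2 or 3. With 1 first title number left out, 4.15% to 9.41% of all rows reached 0.3 with Sox7, 2.76% to 6.33% with Sox17 and 4.50% to 9.29% with Sox18. At −0.3 or less there was 1 gene for Sox7 without number 3, without number 4 and without cells of fewer than 5000 genes. For Sox18 there was 1 without number 2. Among 5 venous genes, 1 reached 0.3 with Sox7, 0 with Sox17 and 1 with Sox18 (4.38%, 2.37% and 3.87% of all rows), with medians of 0.14, 0.02 and 0.07. That gene was the receptor Ephb4, with 0.44 with Sox7 and 0.37 with Sox18. Without first title number 4 (4.99% of all rows) or without cells of fewer than 5000 genes (3.99%) none reached 0.3 with Sox18, and 2 did without number 1 (9.29%). The other 4 lay between −0.03 and 0.21 with Sox7, and the venous regulator Nr2f2 had 0.21, −0.17 and 0.01 with the 3 members.

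Partner and upstream factors, 13 of 14 of which could be compared, include ETS, GATA and Wnt factors. Elk3, an ETS factor, had 0.46 with Sox7, where it alone reached 0.3, and 0.32 with Sox18. Tcf7l1 (0.42), Ctnnb1 (0.37) and Erg (0.33) reached 0.3 with Sox18 too, making 4, and none reached it with Sox17 (4.38%, 3.87% and 2.37% of all rows with Sox7, Sox18 and Sox17). Medians with Sox7, Sox17 and Sox18 were 0.17, 0.11 and 0.10, and that with Sox18 was −0.0011 without first title number 3. The count for Sox18 was 2 without first title number 4 (4.99% of all rows in that setting) and 5 without number 1 (9.29%). For Sox7 it was 3 without number 1 (7.63%) or 2 (9.41%) and 2 without number 4 (4.15%). For Sox17 it was 2 without number 3 (6.33%). Mef2c, a partner of Sox18, had 0.04 with it.

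The list of genes named in the literature as SoxF targets holds 10 genes, of which Vcam1 and Mmp7 were not analysed here and Prox1, the lymphatic regulator, was above TPM 1 in 1 cell. Of the 7 compared, Robo4 and Cldn5 reached 0.3 with Sox7, Robo4 with Sox17 and Flt4 with Sox18 (4.38%, 2.37% and 3.87% of all rows). No target reached it with Sox18 without first title number 3 or 4, without cells of fewer than 5000 genes or without the cell with the fewest genes (2.65% to 4.99% of all rows). There were 3 without number 1 (9.29%) and 2 without number 2 (4.61%). None reached it with Sox17 without number 2 (5.60%), and 1 did with Sox7 without number 2 (9.41%) or 3 (5.70%). Cdh5 had 0.13, 0.04 and 0.19, Notch1 0.07, −0.06 and 0.20, and Tek −0.05, 0.08 and 0.08. Only 2 genes of the lymphatic list could be compared, and they lay on opposite sides with Sox7. Lyve1, a lymphatic and scavenger endothelial receptor present in 42 cells, had −0.42 (−0.52 to −0.12 within the numbers, with 1.78% of all rows at −0.3 or less), and Flt4 had 0.24. With Sox17 they had 0.16 and −0.08, and with Sox18 −0.13 and 0.31. Of the 4 other Sox genes compared, Sox4 (0.42) and Sox13 (0.39) reached 0.3 with Sox7 (4.38% of all rows), but without first title number 3 they had 0.28 and 0.28. None of the 4 reached it with Sox17 or Sox18 (2.37% and 3.87% of all rows), which is near the background for so few genes.

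Blood program genes had few values past the rho level, as had rows at large. Of 20 in the list, 14 were compared, and 0 had 0.3 or more with any member (4.38%, 2.37% and 3.87% of all rows), which is near the background for so short a list. Without first title number 3, 1 reached it with Sox17 (6.33% of all rows in that setting). The medians were 0.06, 0.05 and −0.06 with Sox7, Sox17 and Sox18. Gfi1, a repressor that Runx1 induces and that shuts down endothelial genes, had −0.38 with Sox7 (1 of 14, beside 1.78% of all rows, and negative within all 4 numbers), but was above TPM 1 in only 17 cells. As partial rho, Runx1 had −0.31 with Sox17, and 1 gene had −0.3 or less with Sox17 without number 4 and 1 with Sox18 without number 2. Of the 2 myeloid genes compared, Lyz2, present in 15 cells, had −0.32 with Sox7 and Fcgr3 had 0.09. The 16 cell division genes had medians of −0.07, 0.01 and −0.11, and none reached 0.3 or −0.3 with any member, again near the background (1.78%, 1.02% and 1.7% of all rows at −0.3 or less). With Sox18, 1 gene reached −0.3 without first title number 2, 3 or 4, without cells of fewer than 5000 genes and without the cell with the fewest genes. Over the same 16 genes the median with Sox7 was 0.14 without first title number 3, where 4 genes reached 0.3 (5.70% of all rows). It was −0.17 without number 1 or 4, where 1 reached −0.3, so its sign rested on which cells were taken. The shares of all rows at −0.3 or less in these settings are not given here.

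Since Sox17 also marks endoderm, other endoderm genes were looked at beside it. Krt8 and Krt18 were listed at 0 in all 50 cells, Apoa1 was present in 1 cell and Epcam in 2, and 11 of the 20 list genes, Foxa2 among them, were not analysed here. Gata4, Gata6 and Dab2, which endothelium can also make, were present in 16, 27 and 27 cells and had a rho with Sox17 of 0.00, −0.08 and −0.19. All listed erythroid and mesenchymal rows were above TPM 1 in fewer than 10 cells.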

How the data were processed

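Single iHECs were sorted, and cDNA of each cell was amplified (Discover-sc WTA Kit V2) and made into libraries (TruePrep DNA Library Prep Kit V2). The authors aligned reads to mm10 with HISAT2 2.1.0 and deposited TPM values estimated with StringTie 1.3.4. SAMtools 0.1.19 is named in the submitters' processing notes. The sources name different sequencers, and molecular identifiers and strand setting are not given. How the 11879 rows were selected is not stated. The rows carried 94.3% to 97.1% of the TPM total of a cell.

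Analyses used Python 3.11.15, pandas 2.3.3, numpy 2.4.6 and scipy 1.17.1. A gene was present above TPM 1. Shares of cells have exact Clopper-Pearson 95% intervals. Spearman's rho over the 50 cells was computed for rows present in at least 10 cells, tested on simulated data beforehand. No p-value was computed, because cells are not replicates. No cell was left out, cells were not clustered and no doublet caller was run. The authors' sequencing depth per cell cannot be read from TPM, so precision beyond counting over cells is unknown.

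Named genes were the members, the 10 rows of highest and 5 of lowest rho with each, members of 17 gene lists, neighbours in level among listed factors, and Runx1. Members and lists were chosen with earlier results of these data known. Of the lists, pluripotency genes had no row, and megakaryocyte genes (3 compared) had no rho of 0.3 or −0.3 with any member, which is near the background for 3 genes. With Sox7, Sox17 and Sox18 that background was 4.38%, 2.37% and 3.87% of all rows at 0.3 or more. At −0.3 or less it was 1.78%, 1.02% and 1.7%. Alternatives were TPM above 0, 5 or 10, Pearson's r with pseudocounts of 1 and 0.1, partial rho, rows in at least 25 cells or unfiltered, TPM rescaled without 85 ribosomal protein rows, cells with fewer than 5000 genes left out, each first title number left out and, chosen after seeing the data, without the cell with the fewest genes. Promoter sequences are from RefSeq (GRCm38.p6). Of the 30 leading genes, 23 had one.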

Additional observations from a re-analysis of the deposited data

How the results depend on the processing

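The 35 results were recomputed in 255 alternatives, of which 237 stayed within the interval of a share, 1.5 times a count or the spread of rho over the first title numbers, and 18 moved. For the 3 pairs of members that spread was 0.27 to 0.34, wider than any of their rho values, so staying within it does not show that they are stable. The rho of Sox7 and Sox17 went from 0.02 to −0.16 without number 4 and still counted as within it. Counting values above 0 moved the shares of cells to 100% for Sox7, 84% for Sox17, 100% for Sox18 and 84% for all 3. Partial rho moved the count of genes with Sox17 to 141 and the median of cell division genes with Sox17 to −0.0448. Leaving out each first title number in turn gave 364 to 831 genes for Sox7, 239 to 554 for Sox17 and 394 to 812 for Sox18. With rows chosen anew from the cells kept, it gave list medians of −0.0033 to 0.155 for VEGF receptors with Sox17, −0.016 to 0.083 for blood genes with Sox7, −0.0753 to 0.0695 for cell division genes with Sox17 and −0.195 to 0.128 for cell division genes with Sox7, the last within the spread over the numbers but changing sign without number 3. The cause of these moves was not tested. Without the cell with the fewest genes, an alternative chosen after seeing the data, the counts were 296, 209 and 241 for Sox7, Sox17 and Sox18, and 7, 1 and 6 of the 18 endothelial genes had a rho of 0.3 or more. No paired analysis was possible because the series holds 1 group. Without replicates or a depth per cell, a gene listed at 0 cannot be told apart from one missed, and weak relations are limited most for Sox17, with 14 cells at or below TPM 1.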
